A study of Mus musculus with 2 samples.

Results

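The genes described here encode antibody constant regions and parts of the B cell antigen receptor, measured in sorted CD4+ T cells. They were chosen by the measured FPKM of Ighm, the constant region of the IgM heavy chain, which is abundant in these T cells, so that level is a description and supports nothing further. The list holds 9 genes: Ighm, Ighd, Igkc, Iglc2, Jchain, Cd79a, Cd79b, Ms4a1 and Cd22. By Ensembl gene ID, 8 of the 9 were matched among 41592 rows of the authors' FPKM table (fragments counted per gene, scaled to gene length and library total), and Ighd was not analysed here. Both libraries came from YFP-positive CD4+ T cells of spleen and lymph node. The mice were C57BL/6, were 6 to 8 weeks old and had the genotype Foxp3 dCNS1-Cre-R26-YFP. In these mice Cre is driven by Foxp3 regulatory DNA without the element CNS1, and the Rosa26 YFP reporter stays on in cells in which Cre has acted, whether or not they still express Foxp3. The populations were sorted as Thy1.1-negative or Thy1.1-positive, with a purity typically above 97%, and each gave 1 library. The series compares thymus-derived regulatory T cells with precursors of exFoxp3 cells, but its design text gives both the same marker pair, so the populations are named by their Thy1.1 status. How many animals were pooled is not stated in the labels.

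In B cells the heavy chain genes are assembled by joining V, D and J segments and the light chain genes by joining V and J segments. The joined exon is spliced to a constant region. The finished antibody sits in the membrane with Cd79a and Cd79b, whose tails carry the signal, and Cd22 and Ms4a1 (CD20) are further B cell surface proteins. The heavy chain locus can also be transcribed without a complete rearrangement. Such germline or sterile transcripts, which start near the Ighd4-1 segment or the intronic enhancer and run into the IgM constant region, have long been described in early lymphocytes, T lineage cells included.

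The segments that carry signal in these libraries are printed here so that the values below can be read against the sequence they stand for. They are GENCODE M21 transcript sequences on GRCm38, all written 5′ to 3′ on the sense strand, and were joined to the values by gene ID, since the authors' build was mm9. The capitals in the J segments mark TGGGG, the start of the conserved tryptophan and glycine codons, which was found once in each of the printed J segments on this strand. For Ighm and Igkc the first 60 bases of the constant region are given, the bases to which a J segment is spliced.
Ighd4-1, chr12:113430528-113430538, minus strand: ctaactgggac
Ighj1, chr12:113429781-113429833, minus strand: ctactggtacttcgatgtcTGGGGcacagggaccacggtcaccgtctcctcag
Ighj3, chr12:113429085-113429132, minus strand: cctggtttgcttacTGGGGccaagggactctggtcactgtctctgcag
Ighj4, chr12:113428514-113428567, minus strand: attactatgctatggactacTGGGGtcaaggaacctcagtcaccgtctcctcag
Ighm, gene at chr12:113418558-113422730, minus strand: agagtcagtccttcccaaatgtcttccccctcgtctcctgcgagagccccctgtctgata
Igkc, gene at chr6:70726435-70726966, plus strand: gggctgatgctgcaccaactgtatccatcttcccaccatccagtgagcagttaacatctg

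Counted reads, recovered from the FPKM values, came to 18536339 for Thy1.1-negative and 18600581 for Thy1.1-positive cells, so total depth was alike. Of the 41592 rows, 28107 were above 0 in Thy1.1-negative and 25709 in Thy1.1-positive cells. Each population had 1 library, so differences could not be checked against replicates and are given without p-values. Where a pair of values is given, the first is that of Thy1.1-negative cells. Ratios are Thy1.1-negative over Thy1.1-positive, and their 95% intervals are exact Clopper-Pearson intervals of the reads, which cover counting error only. Differences are of log2(FPKM + 1), and a gene was called when it differed by at least 1, that is 2-fold, at a mean FPKM of at least 1. Of 12820 genes at that level, 3.08% were called in either direction, 1.93% as higher in Thy1.1-negative cells and 1.15% as higher in Thy1.1-positive cells. The cells carried T cell transcripts throughout. All 12 T cell genes listed lay between 100.2 and 942 FPKM in both libraries, with Trbc2 highest and Cd247 lowest. In bulk RNA, fewer cells of a type and less RNA per cell cannot be told apart.

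Ighm stood at 409 FPKM in Thy1.1-negative cells and 258 FPKM in Thy1.1-positive cells. Those levels rest on 10577 and 6708 reads. It ranked 206th and 335th among all genes, below the T cell receptor constant regions: Trac was at 783 and 567 FPKM and Trbc1 at 434 and 333 FPKM. The Ighm ratio was 1.58 (1.53 to 1.63), a log2 difference of 0.66 that stayed under the 2-fold rule. For scale, the median difference of all 12820 genes was 0.03 and that of the 12 T cell genes 0.31. Of these 12, 11 lay above 0 and 1 below. Trbc2 had the largest difference, 0.61, with a ratio of 1.52 (1.47 to 1.57), close to that of Ighm. Protein-coding genes nearest to Ighm in level over the 2 libraries, by Euclidean distance of log2(FPKM + 1), were Flna at a distance of 0.079, Arpc1b at 0.12, Cd52 at 0.15, Ldha at 0.18 and Myl12b at 0.19. Flna, the actin cross-linker filamin A, had 397 and 247 FPKM.

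The other heavy chain constant regions analysed were hardly represented. Ighg3, the constant region of IgG3, had 2.12 FPKM in Thy1.1-negative and 1.84 FPKM in Thy1.1-positive cells, a ratio of 1.15 (0.708 to 1.88). Ighg2c was at 0.712 and 0.577 FPKM. Igha, the IgA constant region, was the exception in direction, at 0.313 and 0.988 FPKM with 6 and 19 reads and a ratio of 0.317 (0.104 to 0.825). Ighg2b, Ighg1 and Ighe had 14, 5 and 2 reads in Thy1.1-negative cells and were listed at 0 in Thy1.1-positive cells, so no ratio is given. Of the 12 constant regions listed, 9 were matched and 3 reached a mean of 1 FPKM. Of these 3, 1 was called, Igkc, beside 3.08% of all genes. The matched constant regions other than Ighm and Igkc thus stayed under 3 FPKM in both libraries.

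Light chain transcripts were much scarcer than Ighm. Igkc, the kappa constant region, stood at 33.1 FPKM in Thy1.1-negative cells and 11.98 FPKM in Thy1.1-positive cells. Its reads were 198 and 72 or a whole multiple of these, and the ratio was 2.76 (2.10 to 3.67). Igkc was the 1 of 5 members with a mean of at least 1 FPKM that passed the 2-fold rule, with a difference of 1.39, against 1.93% of all genes called in that direction. Iglc2, a lambda constant region, was close to absent, with 0.089 and 0.266 FPKM from 1 and 3 reads, and its ratio interval of 0.0064 to 4.17 leaves the direction unresolved at this depth. Per length, Ighm exceeded Igkc 12.4-fold in Thy1.1-negative and 21.6-fold in Thy1.1-positive cells.

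Jchain, which links IgM and IgA into polymers and is made by antibody-secreting cells, was below 1 FPKM in both libraries. It had 0.440 FPKM in Thy1.1-negative and 0.779 FPKM in Thy1.1-positive cells, from 9 and 16 reads or a whole multiple. The ratio of 0.564, with an interval of 0.220 to 1.36 at 9 and 16 reads, includes 1.

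**Figure D1:**
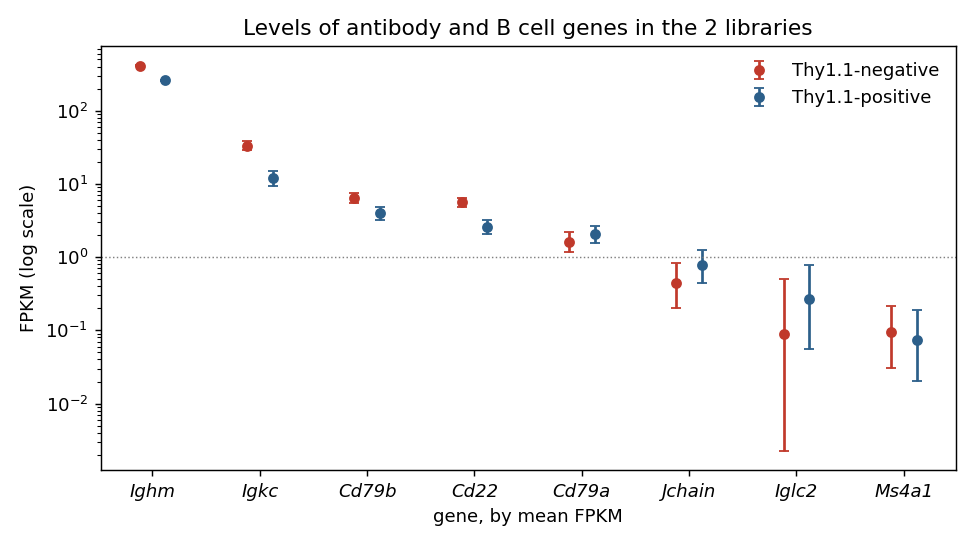
FPKM on a log axis for the 8 matched genes, red for the Thy1.1-negative and blue for the Thy1.1-positive library, with exact 95% Poisson intervals of the reads behind each value and a dotted line at 1 FPKM. Ighm, at 409 and 258 FPKM, lies 12.4-fold and 21.6-fold above Igkc, and Jchain, Iglc2 and Ms4a1 lie below 1 FPKM.

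The receptor's signalling chains were low and did not share a direction. Cd79b stood at 6.45 FPKM in Thy1.1-negative cells and 3.97 FPKM in Thy1.1-positive cells, from 157 and 97 reads, a ratio of 1.62 (1.25 to 2.11). Its partner Cd79a, with which it forms an obligate heterodimer in B cells, had 1.63 and 2.07 FPKM from 44 and 56 reads, a ratio of 0.788 (0.519 to 1.19) that includes 1. Cd79b was thus the higher of the pair in both libraries. The ratio of Cd79a to Cd79b was 0.253 in Thy1.1-negative and 0.520 in Thy1.1-positive cells, and the ratio of these ratios, 0.485, had an interval of 0.295 to 0.797. Protein-coding genes nearest to Cd79a in level were Cryz, Fads6, Shcbp1l, Frmd5 and Zfp316, at distances from 0.0048 to 0.039.

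Cd22, an inhibitory receptor that binds sialic acid and dampens B cell receptor signals, reached 5.59 FPKM in Thy1.1-negative and 2.60 FPKM in Thy1.1-positive cells. From 197 and 92 reads the ratio was 2.15 (1.67 to 2.78), while the difference of log2(FPKM + 1), 0.87, stayed under the rule. It passed the rule with a pseudocount of 0.1, at 1.07, and after scaling by the upper quartile, at 1.07. Ms4a1, the B cell surface protein CD20, was near 0 in both libraries, with 0.093 and 0.075 FPKM from 5 and 4 reads. Among the 5 members with a mean of at least 1 FPKM, 4 lay above 0 and 1, Cd79a, below, and their median difference was 0.66. Without that filter the median of all 8 matched members was 0.30. The ratio intervals of the other 3, Iglc2, Jchain and Ms4a1, included 1.

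**Figure D2:**
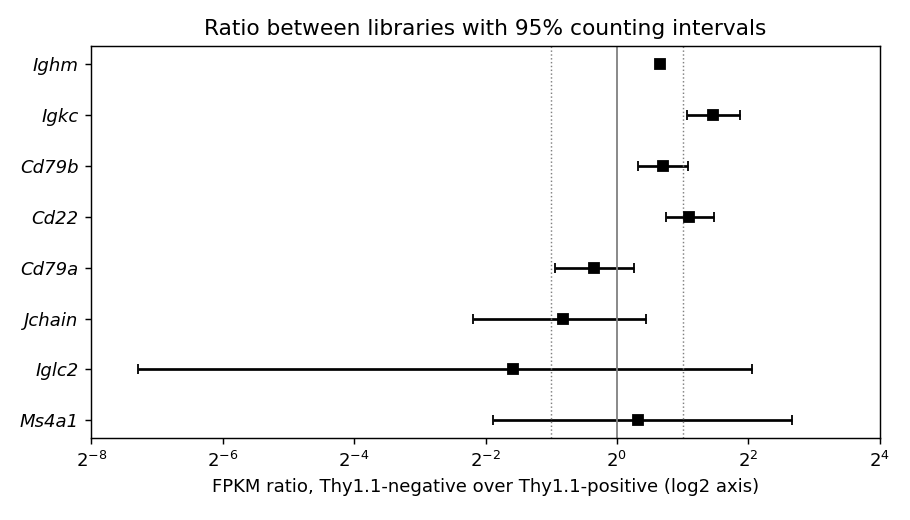
FPKM ratio of the Thy1.1-negative over the Thy1.1-positive library on a log2 axis, with exact 95% counting intervals, a line at 1 and dotted lines at 2-fold in each direction. Ighm, Igkc, Cd79b and Cd22 have intervals above 1, and the intervals of Cd79a, Jchain, Iglc2 and Ms4a1 include 1.

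The members did not keep 1 ratio to each other in the libraries. Pairs among the 5 members with a mean of at least 1 FPKM numbered 10. For 7 of them the 95% counting interval of the ratio of ratios excluded 1, unadjusted for the number of pairs. Pairs share members, and the share over pairs of all genes was not computed, so the count cannot be read as particular to the members. Ighm exceeded Cd79a 251-fold in Thy1.1-negative and 125-fold in Thy1.1-positive cells, a ratio of ratios of 2.01 (1.33 to 3.05). Igkc over Cd79a gave 20.3 and 5.80, a ratio of ratios of 3.5 (2.11 to 5.81). Igkc thus differed more between the libraries than Ighm did, with 0.573 (0.431 to 0.756) for Ighm over Igkc. By contrast Ighm over Cd79b was 63.4 and 65.0, a ratio of ratios of 0.974 (0.747 to 1.27), and Cd79b over Cd22 had an interval of 0.522 to 1.09.

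Signal along the heavy chain locus was found over the D and J segments next to Ighm and hardly over V segments. Ighj1, the first J segment, had 120 FPKM from 118 reads in Thy1.1-negative cells and 76.1 FPKM from 75 reads in Thy1.1-positive cells, a ratio of 1.58 (1.17 to 2.14). Ighj4 followed with 61.9 and 50.8 FPKM from 62 and 51 reads, and Ighj3 with 29.2 and 29.1 FPKM from 26 reads in each. Ighj2 had 20 and 14 reads at the length taken for it, 54 bases, which equals that of an annotated transcript. Its reads depend on that choice of length, and which transcript was counted is not known, so its sequence is not shown. With Ighj2 at that length, reads over the 4 heavy chain J rows summed to 226 and 166, a ratio of 1.37 (1.11 to 1.68).

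Among D segments, Ighd4-1, the last before the J segments, stood out with 28 reads in Thy1.1-negative and 23 in Thy1.1-positive cells. Its model is 11 bases long, so its FPKM of 137 and 112 comes from few reads, and its ratio of 1.22 (0.679 to 2.22) includes 1. The other 16 D segments together had 10 and 6 reads. The neighbouring order is Ighd4-1, Ighj1, Ighj2, Ighj3, Ighj4 and Ighm on the minus strand of chromosome 12. FPKM divides by model length, so at 11 to 54 bases few reads give a high value. By reads, the 4 heavy chain J rows had 226 and 166, against 10577 and 6708 for Ighm. Short segments lose reads that also touch another gene, if counting discards such reads, and the counting settings are not stated in the labels.

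**Figure D3:**
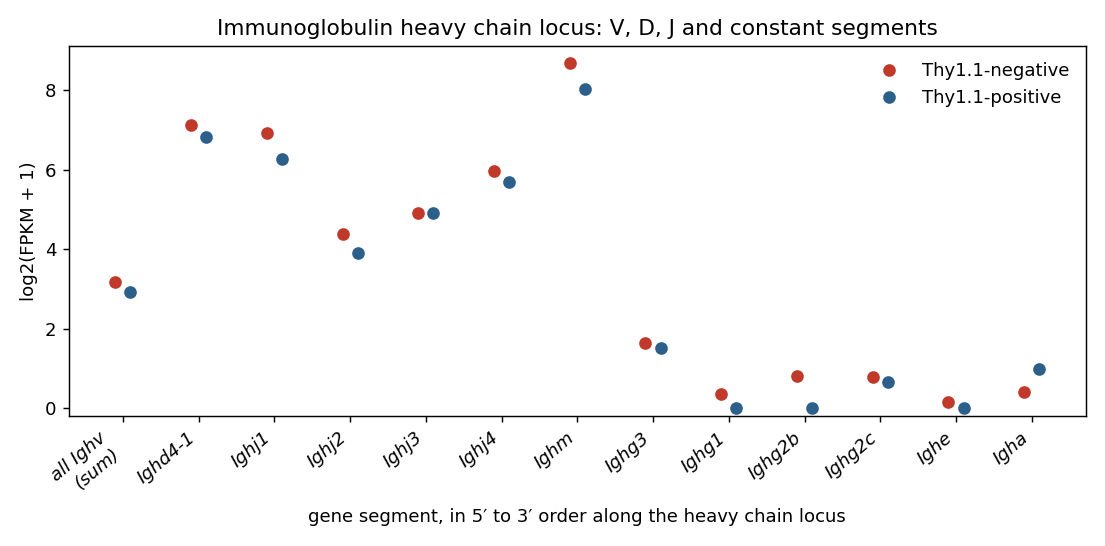
log2(FPKM + 1) of the heavy chain gene segments in 5′ to 3′ order, red for the Thy1.1-negative and blue for the Thy1.1-positive library, with all Ighv segments summed at the left and Ighd not analysed. Ighd4-1 and the J segments, short models with 14 to 118 reads, run from 13.9 to 137 FPKM. Because FPKM divides by length, their heights cannot be compared directly with that of Ighm. Ighm reaches 409 and 258 FPKM, and the constant regions shown after it lie below 3 FPKM.

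V segments had almost no reads. Of 104 heavy chain V segments, 35 were above 0 in Thy1.1-negative and 26 in Thy1.1-positive cells, with 49 and 42 reads in all and summed levels of 8.09 and 6.63 FPKM. Over all genes, too, fewer were above 0 in Thy1.1-positive cells, 25709 against 28107. The highest V segments by mean level were Ighv9-3 with 5 and 2 reads, Ighv6-4 with 2 and 3 reads and Igkv8-16 with 1 and 5 reads. No heavy chain V segment passed 0.768 FPKM in either library. V segments of 1 family are similar in sequence, so reads may be split or lost among them and single segments are uncertain.

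Set against its constant region, the heavy chain V signal was 1.98 FPKM per 100 FPKM of Ighm in Thy1.1-negative and 2.57 in Thy1.1-positive cells. T cell receptor genes of the same libraries, taken for comparison after the values were seen, gave a different picture. Trbv segments summed to 72.2 and 86.1 FPKM per 100 FPKM of Trbc1 and Trbc2, and Trav segments to 50.7 and 54.3 FPKM per 100 FPKM of Trac. The Trbv segments had 6300 and 5251 reads. Whether reads over the antibody V segments were counted as fully was not tested. For kappa, 97 V segments had 50 and 54 reads in all, and their sum was 23.5 and 69.5 FPKM per 100 FPKM of Igkc. The kappa V level was near even between the libraries, at 7.78 and 8.32 FPKM, while Igkc differed 2.76-fold. Kappa J segments had 21 reads in Thy1.1-negative cells, spread over all 5, and 2 reads in Thy1.1-positive cells, both over Igkj5, a ratio of 10.5 (2.58 to 92.7). Only 3 lambda V segments were matched, with 2 and 3 reads.

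**Figure D4:**
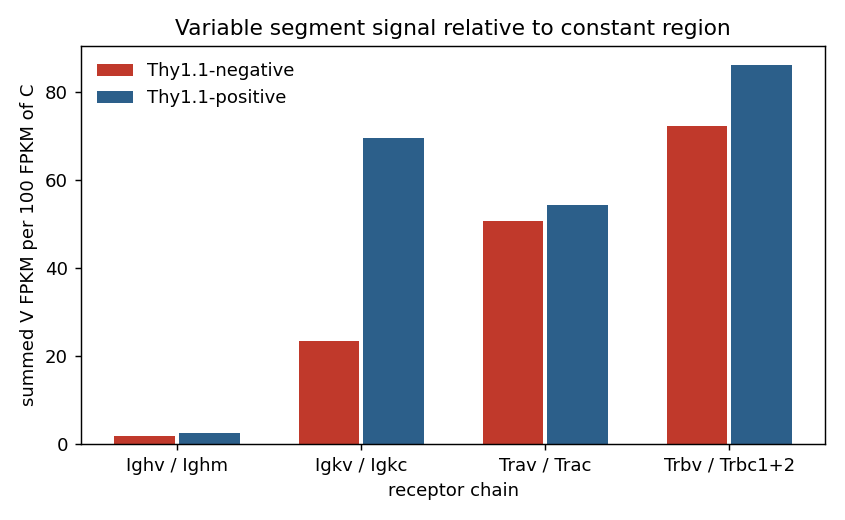
Summed FPKM of V segments per 100 FPKM of the constant region, for the antibody heavy and kappa chains and the T cell receptor alpha and beta chains, red for the Thy1.1-negative and blue for the Thy1.1-positive library. The heavy chain bars stand at 1.98 and 2.57, the Trbv bars at 72.2 and 86.1.

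Beside this Ighm signal, Pax5, the factor that fixes B cell identity, had 0.330 and 0.274 FPKM, and Ms4a1, given above, was lower still. Of 15 B cell surface and receptor genes, 7 had a mean of at least 1 FPKM and none was called, beside 3.08% of all genes. The median difference of the 7 was 0.13. Tnfrsf13b, which encodes the receptor TACI, led them at 44.8 and 41.0 FPKM, a ratio of 1.09 (0.982 to 1.22), followed by Cd72 at 14.7 and 19.5 FPKM. Fcrl1, an Fc receptor-like protein, had 5.89 and 3.84 FPKM. The summed level of the list was 82.2 and 75.6 FPKM, and 1 gene, Fcrla, was listed at 0 in Thy1.1-positive cells.

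Transcription factors and signalling genes of B cells split in the same way into a few that were well expressed and many near 0. Of 9 B cell transcription factors, 4 had a mean of at least 1 FPKM and 1 was called, beside 3.08% of all genes. That was Pou2af1, the coactivator that works with octamer factors at antibody promoters, at 5.19 FPKM in Thy1.1-negative and 0.566 FPKM in Thy1.1-positive cells, a ratio of 9.18 (6.16 to 14.2). Its partner Pou2f2 (Oct-2) had 57.5 and 66.5 FPKM, a ratio of 0.864 (0.821 to 0.909), Irf8 18.5 and 18.0 FPKM, and Bhlhe41 3.76 and 7.16 FPKM. Among 10 genes of B cell receptor signalling, 4 reached that level and none was called, with Dapp1 at 54.1 and 50.4 FPKM and Ralgps2 at 20.6 and 21.4 FPKM. The adaptor Blnk had 0.078 and 0.058 FPKM. None of the 7 pre-B cell genes reached a mean of 1 FPKM, the highest being Vpreb3 at 0.398 and 0.874 FPKM.

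Plasma cell and germinal centre lists hold genes that activated T cells also express. Of 12 plasma cell genes, 8 had a mean of at least 1 FPKM and 1 was called, beside 3.08% of all genes. Of the 8, 7 lay above 0, with a median of 0.22. The called gene was Prdm1, which encodes Blimp-1, at 15.0 and 6.62 FPKM, a ratio of 2.27 (2.02 to 2.55). Xbp1 was highest at 141 and 161 FPKM, and the list's Mzb1 and Tnfrsf17 were below 0.3 FPKM in both libraries. Of 7 germinal centre genes, 3 reached that level and none was called: Bcl6 at 29.9 and 39.1 FPKM, Fas at 26.1 and 27.96 FPKM and S1pr2 at 7.99 and 4.45 FPKM.

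MHC class II genes, which B cells and other antigen-presenting cells express strongly, were low apart from part of the list. Of 10, 8 had a mean of at least 1 FPKM and none was called, beside 3.08% of all genes. The median difference of the 8 was 0.03, and the list summed to 104 and 102 FPKM. Cd74, the invariant chain, led at 46.8 and 45.8 FPKM and H2-Ob followed at 28.4 and 29.6 FPKM. The class II chains themselves were low: H2-Ab1 had 2.27 and 1.99 FPKM, H2-Eb1 1.37 and 1.32 FPKM, and H2-Aa 1.52 and 0.592 FPKM.

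Most markers of further cell types had a mean below 1 FPKM, and some differed between the libraries. For scale, 1.93% of all genes were called as higher in Thy1.1-negative and 1.15% as higher in Thy1.1-positive cells. Of 10 macrophage and monocyte genes, 3 had a mean of at least 1 FPKM and 2 were called as higher in Thy1.1-negative cells, Itgam at 4.17 and 0.272 FPKM and Ly6c2 at 3.37 and 1.15 FPKM, with summed levels of 17.99 and 11.4 FPKM. The highest gene of that list, Cd68, a lysosomal protein of macrophages, had 8.86 and 9.11 FPKM, a ratio of 0.972 (0.775 to 1.22). Other genes of the list were near 0, with Csf1r at 0.113 FPKM in both libraries and C1qa listed at 0 in Thy1.1-positive cells. Of 5 natural killer genes, 2 reached that level and Klrb1c was called, at 2.08 and 0.445 FPKM. The highest, the transcription factor Eomes, lay the other way at 2.22 and 3.00 FPKM, a ratio of 0.743 (0.576 to 0.955). Among 10 dendritic cell genes 3 reached it and none was called, with Cst3 highest at 63.5 and 50.1 FPKM and Cox6a2 listed at 0 in both. Of 6 erythroid genes, the 1 at that level, Hbb-bs, was called as higher in Thy1.1-positive cells, at 0.747 and 2.51 FPKM. For CD8 T cells, Cd8b1 had 4.60 and 4.25 FPKM and Cd8a 0.173 and 0.242 FPKM. With a pseudocount of 5 none of Itgam, Ly6c2, Klrb1c and Hbb-bs was called, nor were Pou2af1 and Prdm1. Ly6c2 was also not called after centring on the median gene or scaling without the 100 highest genes, and Hbb-bs not after scaling by the upper quartile. The part of any of these cell types in the differences of Igkc, Cd79b and Cd22 was not tested.

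**Figure D5:**
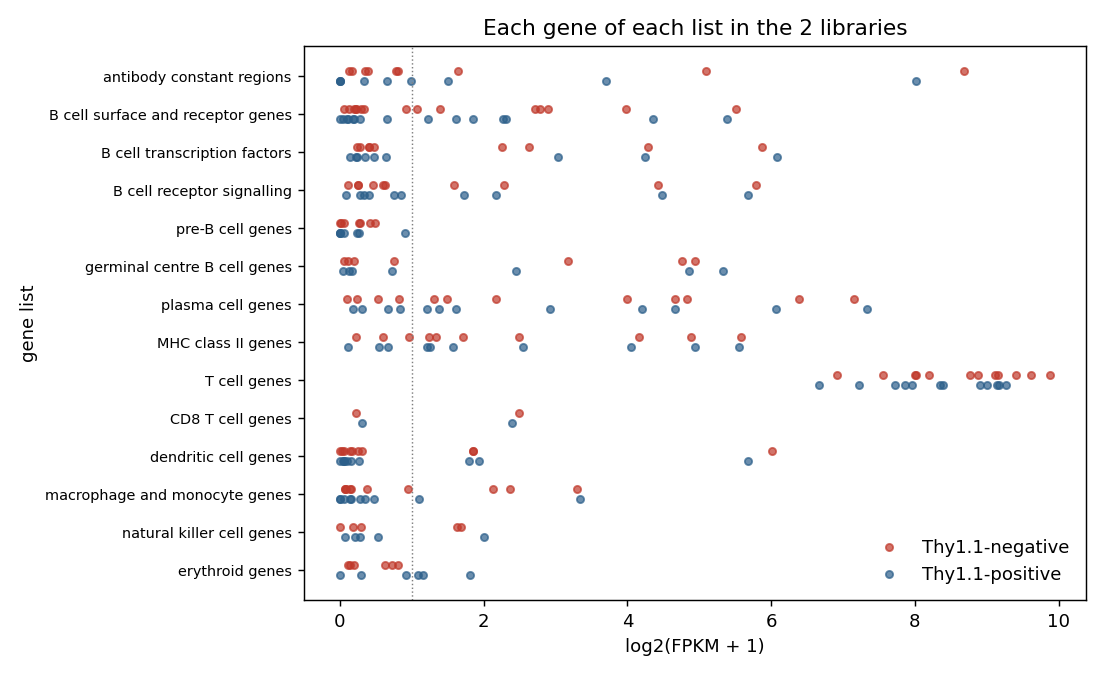
Each gene of 14 lists as a point at its log2(FPKM + 1), red for the Thy1.1-negative and blue for the Thy1.1-positive library, with a dotted line at 1 FPKM. T cell genes lie above 100 FPKM, whereas pre-B cell genes lie below 1 FPKM and Ighm is the point farthest right among antibody constant regions.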

How the data were processed

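The authors deposited FPKM values per Ensembl gene, 1 column per library, and P and N in the column names were read as positive and negative for Thy1.1. Per the submitters' processing notes, the build was mm9 and the tools were TopHat2 2.0.12, Bowtie2 2.2.3 and HTSeq 0.6.1; their settings, strand and annotation are not stated in the labels. Libraries were made from 3 µg of total RNA with an unstated number of animals, per the labels' protocols. Symbols, segment types, lengths and printed sequences and positions came from GENCODE M21 on GRCm38, joined by gene ID, which matched 40254 of 41592 rows.

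Reads were recovered from the FPKM values. For all 23442 genes with a value in each library, the ratio of the values was a ratio of whole numbers times 1 shared factor, within a tolerance of 2e-12, and the totals follow from genes with 1 annotated transcript. Gene lengths came out whole. The multiple matching the annotated mean length within 1%, else an annotated transcript, else the fewest reads at a length of at least 0.5 of that mean, was taken. Recovered reads made up 97.4% and 97.3% of the totals. The recovery was tried on simulated data with every gene length set to the annotated mean. That simulation does not cover rows resolved by the fewest reads, among them Ighm, Igkc and Jchain.

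No replicate test was possible with 1 library a group. Members, lists and tests were chosen with earlier results of these data known. Named were all members, up to 5 leading genes and any called genes of the 14 lists, the 3 highest V segments and the 5 nearest genes; T cell receptor segments, J and D segments and markers near 0 were chosen after their values were seen. Python 3.11.15, pandas 2.3.3 and scipy 1.17.1 were used. Some genes of the lists are not reported here.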

Additional observations from a re-analysis of the deposited data

How the results depend on the processing

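No paired analysis was possible because each population had 1 library, and no library could be left out. The count of members called as higher in the Thy1.1-negative library, 1 as reported, was followed over 11 alternative settings. It was 2 with a pseudocount of 0.1 or after scaling by the upper quartile. With a fold rule of 1.5 it was 3, and with a fold rule of 4 it was 0. No member was called as higher in the Thy1.1-positive library under any setting. Shares of all genes called under these settings are not reported here, so the changed counts cannot be read as particular to the members. Upper-quartile scaling shifted the all-gene median by 0.23, to 0.26, and put Ighm at 0.92; the other scalings moved it by less than 0.1. The log2 difference of Igkc ranged from 1.16 to 1.63, that of Ighm from 0.62 to 0.92, that of Cd79b from 0.35 to 0.80 and that of Cd22 from 0.48, with a pseudocount of 5, to 1.07, while Cd79a stayed below 0 and Ms4a1 turned to -0.0098 when centred on the median gene. Medians of low lists turned sign: B cell transcription factors to 0.033 without a filter and 0.16 by the upper quartile, B cell receptor signalling to -0.039 without a filter, -0.012 centred and -0.012 without the 100 highest genes, germinal centre genes to 0.00017 and 0.15 without a filter and by the upper quartile, MHC class II genes to -0.0047 centred, and macrophage and monocyte genes to -0.036 when the mean had to reach 5 FPKM. With a pseudocount of 5, Pou2af1, Prdm1, Itgam, Ly6c2, Klrb1c and Hbb-bs were no longer called. Macrophage and monocyte calls fell from 2 to 1, without Ly6c2, when centred or without the 100 highest genes. The call of Hbb-bs was lost by the upper quartile. Pou2af1, Itgam, Ly6c2, Klrb1c and Hbb-bs fell under the filter at a mean of 5 FPKM. With a pseudocount of 0.1 an MHC class II gene, H2-Aa, was called, and without a filter 2 erythroid genes were. The median difference of the members, 0.66, was 0.30 without a filter, 0.48 with a pseudocount of 5 and 0.92 by the upper quartile. Depth limits Iglc2, Ms4a1 and single V segments, which had few reads.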

Other observations

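Between the J segments and Ighm, on the same strand, GENCODE M21 annotates predicted small RNA models, chosen here after their values were seen. Gm22175 had 7 reads in each library, Gm24022 had 2 reads in the Thy1.1-negative and 3 in the Thy1.1-positive library, and Gm25747 had 2 and 0. Whether these reads come from small RNAs or from longer transcripts across the models was not tested.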
